A study of Mus musculus with 32 samples.

Results

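The Slc25 family holds the mitochondrial carriers, and its transcripts were followed in the livers of mice given disulfiram (DSF), an inhibitor of aldehyde dehydrogenase, on a standard or a high-fat diet. Members were all probes of the Illumina MouseRef-8 v2 BeadChip whose annotated symbol starts with Slc25a, that is 57 of 25697 probes, for 39 genes. Of these genes, 30 were tested, because their brightest detected probe was detected (detection p under 0.05) in at least 5 mice. Total liver RNA came from male C57BL/6J mice, labelled as 56 weeks old after 40 weeks on a study diet, with 5 mice in each of 6 groups. HFD mice ate a diet with 61% of its calories from fat and no DSF, HFDL mice the same diet with the low dose (100 mg/kg/day, 2.33 g/kg of food), and HFDH mice with the high dose (200 mg/kg/day, 2.67 g/kg of food). SD mice ate a standard diet with 17% of calories from fat and no DSF, SDL mice that diet with the low dose (1 g/kg of food), and SDH mice with the high dose (2 g/kg of food). All groups ate freely until the tissue was taken, and nothing but the food differed between them by the labels.

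Each carrier of this family moves a set of metabolites across a membrane, most often the inner mitochondrial membrane, by exchange or by cotransport. In liver these exchanges link the mitochondrial matrix to the cytosol for the urea cycle, gluconeogenesis, fatty acid synthesis and oxidation, and the export of ATP. Most members share a fold made of repeated units, and each has its own substrates.

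Arrays of 27 mice had full signal, with 43.8% to 52.7% of probes detected, and entered the comparisons. Mice given DSF are named by the numbers that head their intensity columns, which differ from the replicate numbers of the sample titles. In 3 mice (SDH replicate 16, HFDL replicate 10 and HFDH replicate 16) under 35% of probes were detected (6.56% to 27.2%), so SDH, HFDL and HFDH held 4 mice each and the other groups 5. With these 3 mice in the fit as well, none of the 5 carriers called below passed the test (limma adjusted p at least 0.33), and the difference of Slc25a39 changed sign. Hepatocyte markers were bright in every group, with 6 of 7 markers on the array detected in at least 5 mice and summed intensities of 87998 to 115464. Markers of pancreatic acinar cells summed to 77022 in SDH replicate 17 and 9381 in SD replicate 2, against 524 to 1107 in the other mice. SDH replicate 17 also held skeletal muscle markers (26498, against 157 to 277). The levels below are log2 intensities relative to the mean of all probes on the array, scaled to a common spread. Differences between groups are limma's log2 differences with their standard error (SE), and a gene was called at an adjusted p under 0.05 over all 9972 genes tested. Less RNA per cell and fewer cells of a type cannot be told apart in whole liver.

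Of the 30 tested genes, 26 were detected in all 27 mice. The lowest detection counts were those of Slc25a22, a glutamate carrier (7 mice), and Slc25a46, an outer-membrane protein that shapes mitochondria (11 mice). The other 9 genes, whose probes reached detection in at most 2 mice, were not tested. They were Slc25a18, Slc25a21, Slc25a27, Slc25a31, Slc25a35, Slc25a40, Slc25a41, Slc25a48 and Slc25a53. Among them, Slc25a31 is the ADP/ATP carrier of testis, and Slc25a40 is the close relative of the glutathione importer Slc25a39. Within a group, the standard deviation between mice had a median of 0.20 over the 30 genes, from 0.10 for Slc25a26 to 0.51 for Slc25a30.

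The first comparison was of the diets without drug, and 1 carrier passed the test. Slc25a47, a carrier found mainly in liver whose substrate is not settled, was higher in HFD livers. Its levels were 7.01, 7.17, 7.59, 7.56 and 7.57 in HFD mice, against 6.55, 6.57, 6.89, 6.76 and 6.83 in SD mice. The lowest HFD mouse lay above the highest SD mouse. The difference was 0.66 (SE 0.15, 1.58-fold, limma adjusted p = 0.027). This was 1 of 30 carriers, set beside 0.933% of all genes called in HFD-SD (0.491% higher). The call was lost without SD replicate 1 or 2 or without HFD replicate 3, 4 or 5, with adjusted p up to 0.0987 and differences of 0.61 to 0.75. It was also lost after quantile normalization (0.35, adjusted p = 0.10), neqc (0.35, adjusted p = 0.14) and median centring (0.35, adjusted p = 0.081), and with only the SD and HFD mice in the fit (adjusted p = 0.066).

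In all 8 mice given DSF on the high-fat diet, Slc25a47 lay above the highest SD mouse. Mice of the HFDL group had 7.85, 7.68, 7.81 and 7.61, all above the 5 HFD mice on this scale. The difference from HFD was 0.35 (SE 0.16) and missed the threshold (limma adjusted p = 0.41). Without normalization, mean intensities lay closer, at 21062.5 in HFDL mice and 19882.3 in HFD mice. HFDH mice had 7.80, 7.45, 7.55 and 7.10, and these overlapped the HFD mice (0.09, adjusted p = 0.77). On the standard diet the levels were 6.90, 6.70, 7.16, 6.67 and 7.25 in SDL mice and 7.21, 6.89, 7.24 and 6.63 in SDH mice, and both ranges overlapped that of SD. Slc25a29, a carrier of basic amino acids whose gene is the neighbour of Slc25a47 on chromosome 12 in the RefSeq annotation, differed by -0.01 in HFD-SD (SE 0.11, adjusted p = 0.98).

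**Figure D1:**
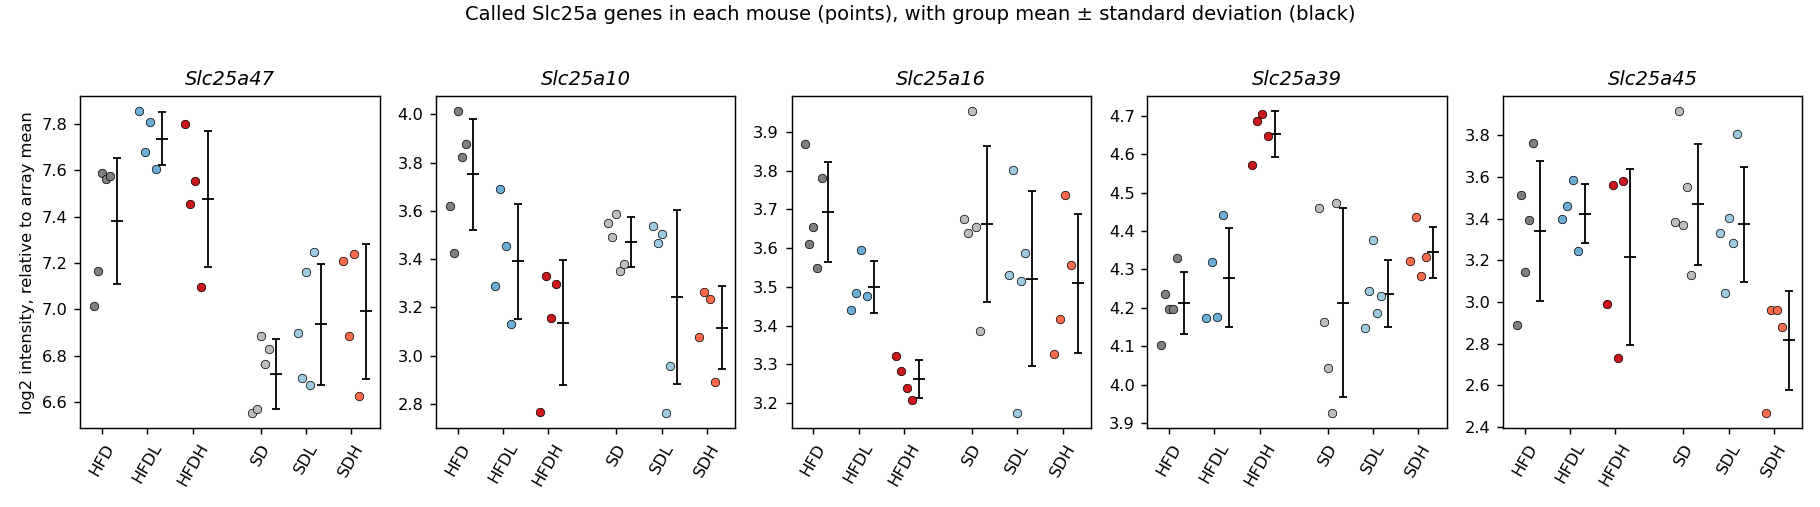
Level of the 5 called Slc25a genes in each mouse (points; y axis, log2 intensity relative to the array mean, with its own range in each panel), by group along the x axis (HFD, HFDL and HFDH at left, SD, SDL and SDH at right), with the group mean ± standard deviation in black. All HFD points of Slc25a47 lie above the SD points, the HFDH points of Slc25a39 lie between 4.57 and 4.70 above the other groups, and the HFDH points of Slc25a16 lie between 3.21 and 3.32.

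The other carriers differed less between the diets, and none of them was called. Slc25a25, a calcium-regulated exchanger of ATP-Mg for phosphate, had 3.61, 3.61, 3.85, 3.98 and 3.57 in HFD mice and 3.76, 4.06, 4.78, 4.53 and 4.45 in SD mice. The difference of -0.59 (SE 0.23) was near that of Slc25a47 in size, but the ranges overlapped and the test was not passed (limma adjusted p = 0.24). Slc25a5, an ADP/ATP translocase, averaged 6.93 ± 0.03 in HFD mice and 6.69 ± 0.16 in SD mice (± standard deviation, n = 5 each). These ranges did not overlap, with a difference of 0.23 (SE 0.09, adjusted p = 0.25). Slc25a12, an aspartate/glutamate carrier, had a difference of -0.38 (adjusted p = 0.28), and no HFD mouse reached the lowest SD mouse. Slc25a17, the peroxisomal carrier of coenzyme A and other cofactors, differed by -0.34 (adjusted p = 0.24), with overlapping ranges. At an unadjusted p under 0.05, 7 of 30 carriers passed in HFD-SD (14% of all genes did). By the criteria of the study's methods 2 passed, Slc25a25 and Slc25a47, beside 5.09% of all genes. Over the 30 carriers the median difference was -0.02, beside -0.03 over all genes.

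High-dose DSF on the high-fat diet gave 3 called carriers, 1 higher and 2 lower. They had different substrates: Slc25a39 is needed for the import of glutathione, Slc25a10 exchanges malate and succinate for phosphate or sulphur compounds, and Slc25a16 is related to Leu5, which yeast need for coenzyme A in mitochondria. In HFDH-HFD, 4.38% of all genes were called (1.44% higher and 2.94% lower). The ranges of HFDH and HFD mice did not overlap for 5 of the 30 carriers, the 3 called genes and Slc25a11 and Slc25a26, beside 9.27% of all genes.

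Slc25a39 had 4.57, 4.69, 4.70 and 4.65 in HFDH mice, against 4.10, 4.24, 4.20, 4.20 and 4.33 in HFD mice. On this scale all 4 HFDH livers were above every other of the 27 mice. Without normalization, mean intensities were 2798 in HFDH mice, 2220.2 in HFD mice and 2605.1 in SD mice. The difference was 0.44 (SE 0.10, 1.36-fold, limma adjusted p = 0.0096), and it passed the test with any single mouse left out (adjusted p up to 0.038). After median centring without scaling it was 0.17 (adjusted p = 0.40), where the median of all genes was -0.13. HFDL mice had 4.17, 4.32, 4.18 and 4.44, which overlapped HFD (0.07, adjusted p = 0.87). HFDH minus HFDL came to 0.37 (SE 0.10, adjusted p = 0.74) without overlap of the ranges, in a comparison where no gene was called.

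Levels of Slc25a10, the dicarboxylate carrier, were 2.77, 3.33, 3.15 and 3.30 in HFDH mice, against 3.62, 3.42, 4.01, 3.82 and 3.88 in HFD mice. The highest HFDH mouse was below the lowest HFD mouse. The difference was -0.61 (SE 0.16, 1.53-fold lower, limma adjusted p = 0.025). Without HFD replicate 3 or 4, or without HFDH replicate 13 or 15, it missed the threshold (adjusted p up to 0.12, differences of -0.70 to -0.49). HFDL mice, with 3.29, 3.69, 3.45 and 3.13, overlapped the HFD mice (-0.36, adjusted p = 0.41). On the standard diet the SDH mice had 3.08, 3.26, 3.23 and 2.89, all below the 3.55, 3.49, 3.59, 3.35 and 3.38 of SD mice, but the difference of -0.36 (SE 0.16) did not pass (adjusted p = 0.17). The high-dose difference on HFD was thus -0.26 from that on SD (95% interval -0.72 to 0.20, adjusted p = 0.66), so this interval spans 0 and the responses on both diets were not shown to differ.

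Slc25a16 had 3.32, 3.28, 3.24 and 3.21 in HFDH mice, against 3.87, 3.61, 3.65, 3.55 and 3.78 in HFD mice. The 4 HFDH mice had a standard deviation of 0.05 and lay below all HFD mice. The difference was -0.43 (SE 0.11, 1.35-fold lower, limma adjusted p = 0.027), and it missed the threshold without HFD replicate 1 or 5 or without HFDH replicate 13, 14 or 15 (adjusted p up to 0.083, differences of -0.47 to -0.39). HFDL mice had 3.44, 3.48, 3.60 and 3.48, of which 3 lay below all HFD mice and 1 within their range (-0.19 from HFD, adjusted p = 0.56). In SDH mice the levels of 3.33, 3.42, 3.74 and 3.56 overlapped those of SD mice, 3.68, 3.64, 3.95, 3.66 and 3.38 (-0.15, adjusted p = 0.44).

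The bases before the annotated starts of both carriers that fell in HFDH livers are shown, to set their promoters side by side, from RefSeq (build GRCm38.p6), 5′ to 3′ on the strand of the gene. Slc25a10 is at chr11:120491587-120491836 (plus strand, 250 bases) and Slc25a16 at chr10:62920383-62920631 (plus strand, 249 bases).
Slc25a10: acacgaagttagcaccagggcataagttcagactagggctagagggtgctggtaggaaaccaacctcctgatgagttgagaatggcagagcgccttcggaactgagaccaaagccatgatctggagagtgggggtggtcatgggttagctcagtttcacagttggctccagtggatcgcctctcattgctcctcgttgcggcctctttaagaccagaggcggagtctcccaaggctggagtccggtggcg
Slc25a16: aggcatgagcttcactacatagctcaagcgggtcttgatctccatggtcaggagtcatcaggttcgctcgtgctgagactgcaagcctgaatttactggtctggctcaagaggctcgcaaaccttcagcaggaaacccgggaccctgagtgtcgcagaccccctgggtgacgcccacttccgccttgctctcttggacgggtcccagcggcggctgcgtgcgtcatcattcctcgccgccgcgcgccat
Both are in lower case throughout, because none of 5 motifs searched on both strands occurs in them. The motifs were TATAAA (a core promoter box), CCAAT (the box of that name), GGGCGG (GC box), TGACNNNGC (core of the antioxidant response element) and AGGTCA (nuclear receptor half-site). Of all 32851 RefSeq windows of 250 bases before a start, 12.4% held TATAAA, 33.8% CCAAT, 32.7% GGGCGG, 10.2% TGACNNNGC and 14% AGGTCA. Windows were found for 32 of the 39 family genes, and of their 41 windows 73.2% held GGGCGG, 43.9% CCAAT, 17.1% TGACNNNGC, 9.76% AGGTCA and 4.88% TATAAA. The windows of Slc25a39 and Slc25a47 lie inside their gene records, after the start of another transcript model, and are not shown.

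Among the other carboxylate carriers, Slc25a11, the 2-oxoglutarate/malate carrier, averaged 2.44 ± 0.10 in HFDH mice (± standard deviation, n = 4) and 2.65 ± 0.06 in HFD mice (± standard deviation, n = 5). The ranges did not overlap, with a difference of -0.21 (SE 0.09, limma adjusted p = 0.17). Its other probes differed by -0.26 and -0.33 (adjusted p = 0.17 and 0.19). Slc25a1, the citrate exporter that supplies fatty acid synthesis, averaged 4.08 ± 0.09 in HFDH mice (± standard deviation, n = 4) and 4.12 ± 0.15 in HFD mice (± standard deviation, n = 5), with a difference of -0.04 (adjusted p = 0.86). Slc25a26, the importer of S-adenosylmethionine, was lower than in every HFD mouse in all 4 HFDH mice (-0.22, adjusted p = 0.11) and in all 4 HFDL mice (-0.25, adjusted p = 0.21), without passing the test.

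The carriers that serve fatty acid oxidation, the urea cycle and ATP export did not pass in HFDH-HFD. Slc25a20, the carnitine/acylcarnitine carrier, averaged 5.30 ± 0.25 in HFDH mice (± standard deviation, n = 4) and 5.39 ± 0.11 in HFD mice (± standard deviation, n = 5; -0.09, adjusted p = 0.75). Slc25a13 (citrin, the aspartate/glutamate carrier of liver) had -0.25, -0.18, 0.05 and 0.60 in HFDH mice, against 0.67, 0.21, 0.46, 0.50 and 0.21 in HFD mice. Of the HFDH mice 3 lay below all HFD mice and 1 lay within their range (-0.35, SE 0.16, adjusted p = 0.20). Slc25a15, the ornithine carrier of the urea cycle, differed by 0.02 (adjusted p = 0.95), and the phosphate carrier Slc25a3 by -0.18 (adjusted p = 0.40). Slc25a5 differed by -0.09 (adjusted p = 0.63), Slc25a42, a carrier of coenzyme A, by -0.10 (adjusted p = 0.85), and Slc25a44, which imports branched-chain amino acids, by -0.08 (adjusted p = 0.79). At an unadjusted p under 0.05, 6 of 30 carriers passed, beside 20% of all genes. Differences were negative for 22 of the 30 carriers, where 49.1% of all genes had a positive difference. The carriers' median was -0.09, beside -0.01 over all genes (-0.05 beside 0.01 after quantile normalization, and -0.28 beside -0.13 after median centring). Taken without sign, the median difference was 0.10 over the carriers and 0.15 over all genes.

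**Figure D2:**
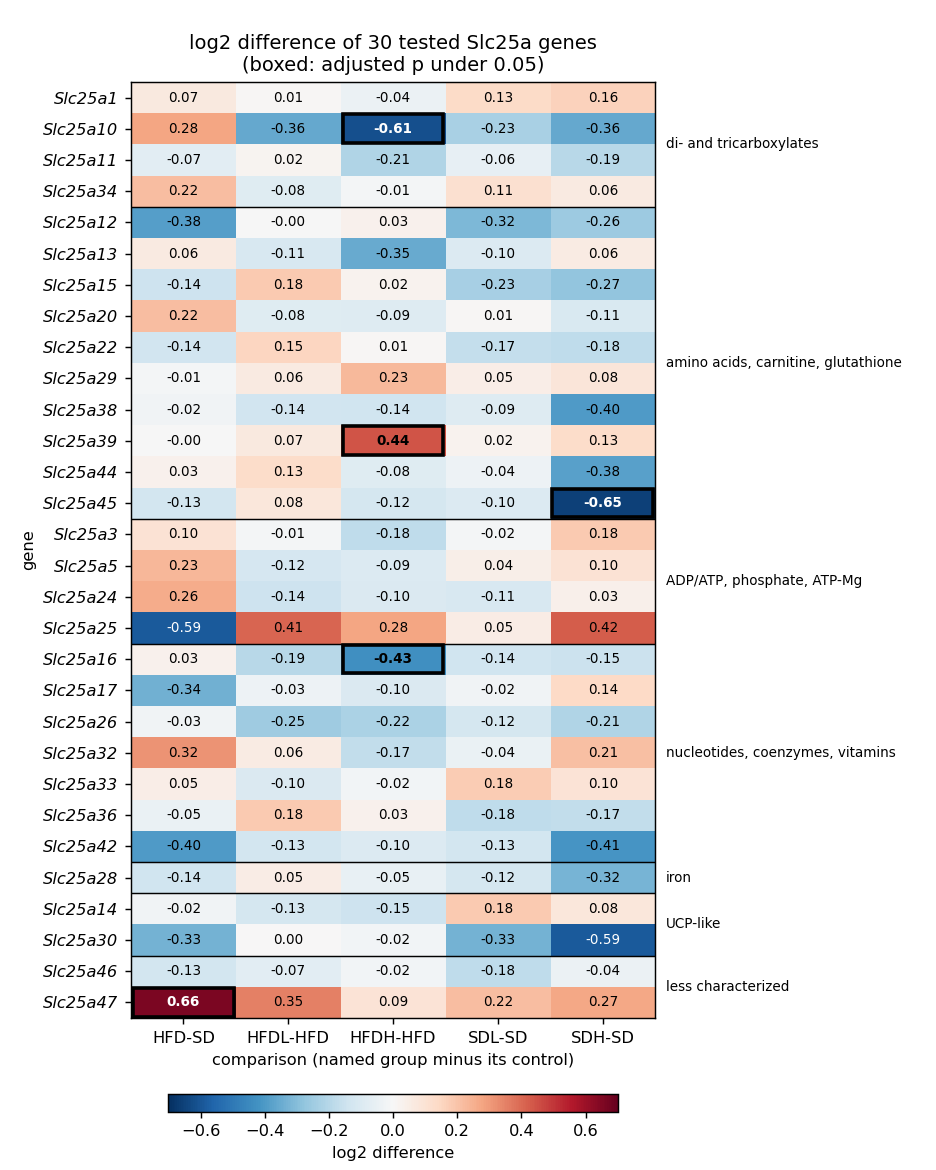
log2 differences of the 30 tested Slc25a genes (rows, grouped by substrate role) in 5 comparisons (columns; the named group minus its control), printed in each cell and coloured by size, with called cells boxed. The 5 boxed cells are Slc25a47 in HFD-SD (0.66), Slc25a10 (-0.61), Slc25a39 (0.44) and Slc25a16 (-0.43) in HFDH-HFD, and Slc25a45 in SDH-SD (-0.65).

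High-dose DSF on the standard diet gave 1 called carrier. That count moved with the normalization, the filter and the probe rule, and was 0 without the detection filter. Slc25a45, an orphan member placed here with the amino acid and carnitine carriers, was lower in SDH livers. Its levels were 2.47, 2.96, 2.96 and 2.88 in SDH mice, against 3.39, 3.92, 3.37, 3.55 and 3.13 in SD mice. All 4 SDH mice lay below all SD mice. The difference was -0.65 (SE 0.19, 1.57-fold lower, limma adjusted p = 0.037), and 1 of 30 carriers stood beside 7.07% of all genes called in SDH-SD (4.26% lower).

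The call of Slc25a45 rested on few mice. Acinar markers (11 of 14 on the array, all 11 detected in at least 1 SDH mouse and at least 1 SD mouse) had summed intensities of 601 to 77022 in SDH mice and 524 to 9381 in SD mice, and their part in the difference was tested only by leaving mice out. Without SDH replicate 17 and SD replicate 2, the difference was -0.56 (adjusted p = 0.13). It also missed the threshold when SD replicate 1, 2 or 4 or SDH replicate 13, 15 or 17 was left out singly (adjusted p up to 0.11, differences of -0.74 to -0.54). With only SD and SDH mice in the fit the adjusted p was 0.082. On the high-fat diet the HFDH mice had 2.99, 3.56, 2.73 and 3.58 and the HFD mice 2.89, 3.52, 3.14, 3.40 and 3.76, with full overlap (-0.12, adjusted p = 0.75). The responses on HFD and SD differed by 0.53 (95% interval -0.02 to 1.08, adjusted p = 0.41), so the diets were not shown to differ.

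Before the annotated start of Slc25a45, at chr19:5877572-5877800 (GRCm38.p6, plus strand, 229 bases), the same search found GGGCGG and AGGTCA once each, printed in capitals.
Slc25a45: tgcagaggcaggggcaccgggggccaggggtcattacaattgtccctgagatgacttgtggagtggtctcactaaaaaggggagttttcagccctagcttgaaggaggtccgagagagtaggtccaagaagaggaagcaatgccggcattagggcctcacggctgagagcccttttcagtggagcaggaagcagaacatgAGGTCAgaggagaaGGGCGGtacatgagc
GGGCGG lies 10 to 15 bases and AGGTCA 24 to 29 bases before the end of the printed run, and both read in the direction of the gene. These are matches of letters, found in 32.7% and 14% of all windows.

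Of the remaining carriers, Slc25a38, which imports glycine for haem synthesis, came nearest to the threshold in SDH-SD. It had 3.32, 3.42, 3.28 and 2.79 in SDH mice, against 3.49, 3.74, 3.53, 3.76 and 3.49 in SD mice. The lowest level was that of SDH replicate 17, but the other SDH mice too were below all SD mice (-0.40, SE 0.13, limma adjusted p = 0.058). Slc25a44 differed by -0.38 (adjusted p = 0.11), Slc25a28, a mitoferrin that imports iron, by -0.32 (adjusted p = 0.15), and Slc25a42 by -0.41 (adjusted p = 0.28), all with overlapping ranges. The largest positive difference was that of Slc25a25, which averaged 4.74 ± 0.35 in SDH mice (± standard deviation, n = 4) and 4.31 ± 0.40 in SD mice (± standard deviation, n = 5; 0.42, adjusted p = 0.31). All 7 carriers with an unadjusted p under 0.05 in SDH-SD were lower, beside 14.3% of all genes lower and 9.21% higher at that level. The median over the 30 carriers was -0.07, beside -0.04 over all genes.

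For 9 genes more than 1 probe passed the detection filter, and probes of the same gene gave other calls in 2 of them. The dimmer probe of Slc25a15 was lower in SDH livers, averaging 2.59 in SDH mice and 3.29 in SD mice (-0.70, limma adjusted p = 0.039), where the brighter probe averaged 5.30 in SDH mice and 5.58 in SD mice (-0.27, adjusted p = 0.28). The same dim probe differed by -0.59 in HFD-SD and -0.61 in SDL-SD, and the bright one by -0.14 and -0.23, none of them called. Slc25a38 had 3 probes, with differences in SDH-SD of -0.40 for the brightest, -0.53 for the second (adjusted p = 0.0065) and -0.30 for the third (adjusted p = 0.14), so all were in 1 direction. In HFDH-HFD the third probe stood apart, with 0.35 (adjusted p = 0.11) against -0.14 and -0.10 for the others. The dimmer probe of Slc25a20 differed by -0.34 in HFDH-HFD (adjusted p = 0.26) and -0.48 in SDH-SD (adjusted p = 0.076), where the brighter one differed by -0.09 and -0.11. In at least 1 of the comparisons with HFD or SD as control, probes of Slc25a3, Slc25a11, Slc25a13, Slc25a20, Slc25a24 and Slc25a32 disagreed in sign, with no probe called. Slc25a39, Slc25a16, Slc25a10, Slc25a45 and Slc25a47 had 1 tested probe each, so no second probe bears on their calls.

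**Figure D3:**
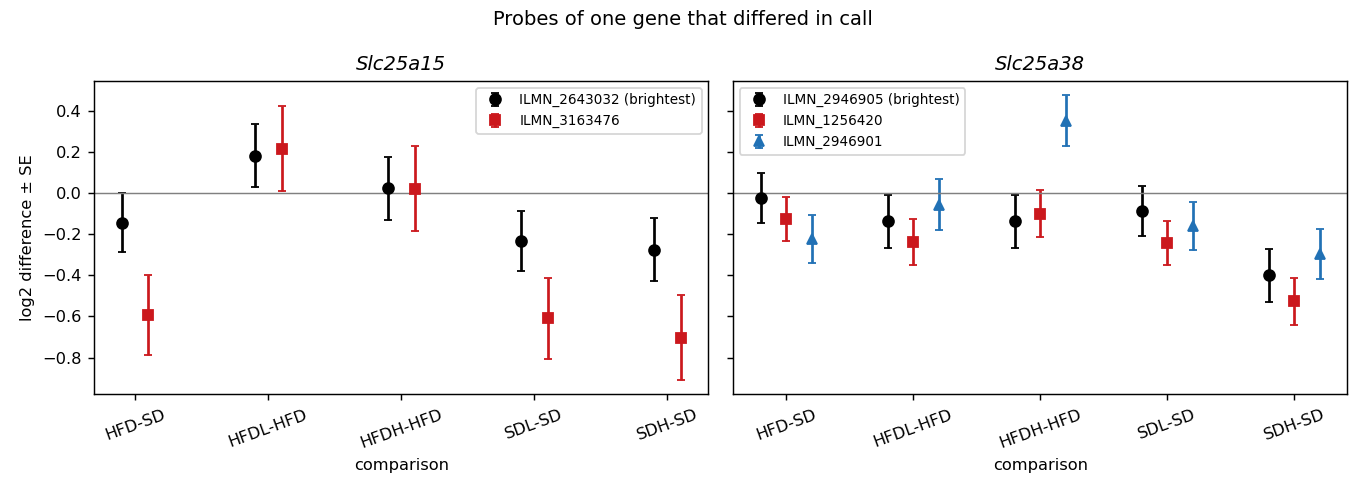
log2 difference ± SE (y axis) of each tested probe of Slc25a15 (left) and Slc25a38 (right) in 5 comparisons (x axis; the named group minus its control). For Slc25a15 the dimmer probe lies below the brighter one in HFD-SD, SDL-SD and SDH-SD, and for Slc25a38 all 3 probes lie below 0 in SDH-SD while 1 lies at 0.35 in HFDH-HFD.

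The low dose gave no called carrier by limma in HFDL-HFD (0.461% of all genes called) or SDL-SD (0.632%). At an unadjusted p under 0.05, 3 of 30 carriers passed in HFDL-HFD (10.6% of all genes did) and 0 in SDL-SD (10.7%). By the criteria of the study's methods, 2 carriers passed in HFDL-HFD (Slc25a10 and Slc25a47, beside 4.72% of all genes) and 0 in SDL-SD (4.36%). In HFDL-HFD the differences ran from -0.36 for Slc25a10 to 0.41 for Slc25a25. Slc25a25 had 4.09, 4.64, 4.29 and 3.51 in HFDL mice, of which 3 were above all HFD mice and 1 below them (adjusted p = 0.58). In SDL-SD the differences ran from -0.33 for Slc25a30, a relative of the uncoupling proteins, to 0.22 for Slc25a47. HFDH-HFDL and SDH-SDL had no called gene at all by limma (0% of genes). At an unadjusted p under 0.05, 2 of 30 carriers passed in HFDH-HFDL, beside 5.9% of all genes, and 3 in SDH-SDL, beside 8.47%. The methods' criteria gave 1 carrier in HFDH-HFDL (Slc25a39, beside 2.22% of all genes) and 1 in SDH-SDL (Slc25a45, beside 2.2%).

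Slc25a genes were not called in either test of diet dependence, the DSF response on HFD minus that on SD. At the low dose 0% of all genes were called, and 1 of 30 carriers had an unadjusted p under 0.05, beside 4.21% of all genes. At the high dose 0.0602% of genes were called, and 2 of 30 carriers had an unadjusted p under 0.05, beside 12.7% of all genes. Slc25a39 was 1 of them, with a difference between the diets of 0.31 (95% interval 0.03 to 0.59, limma adjusted p = 0.35), and SDH mice had 4.32, 4.44, 4.28 and 4.33 beside 4.46, 4.16, 4.04, 3.93 and 4.47 in SD mice. HFD and SD mice each serve as the control of 2 DSF groups and of the diet comparison, so these comparisons share mice.

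**Figure D4:**
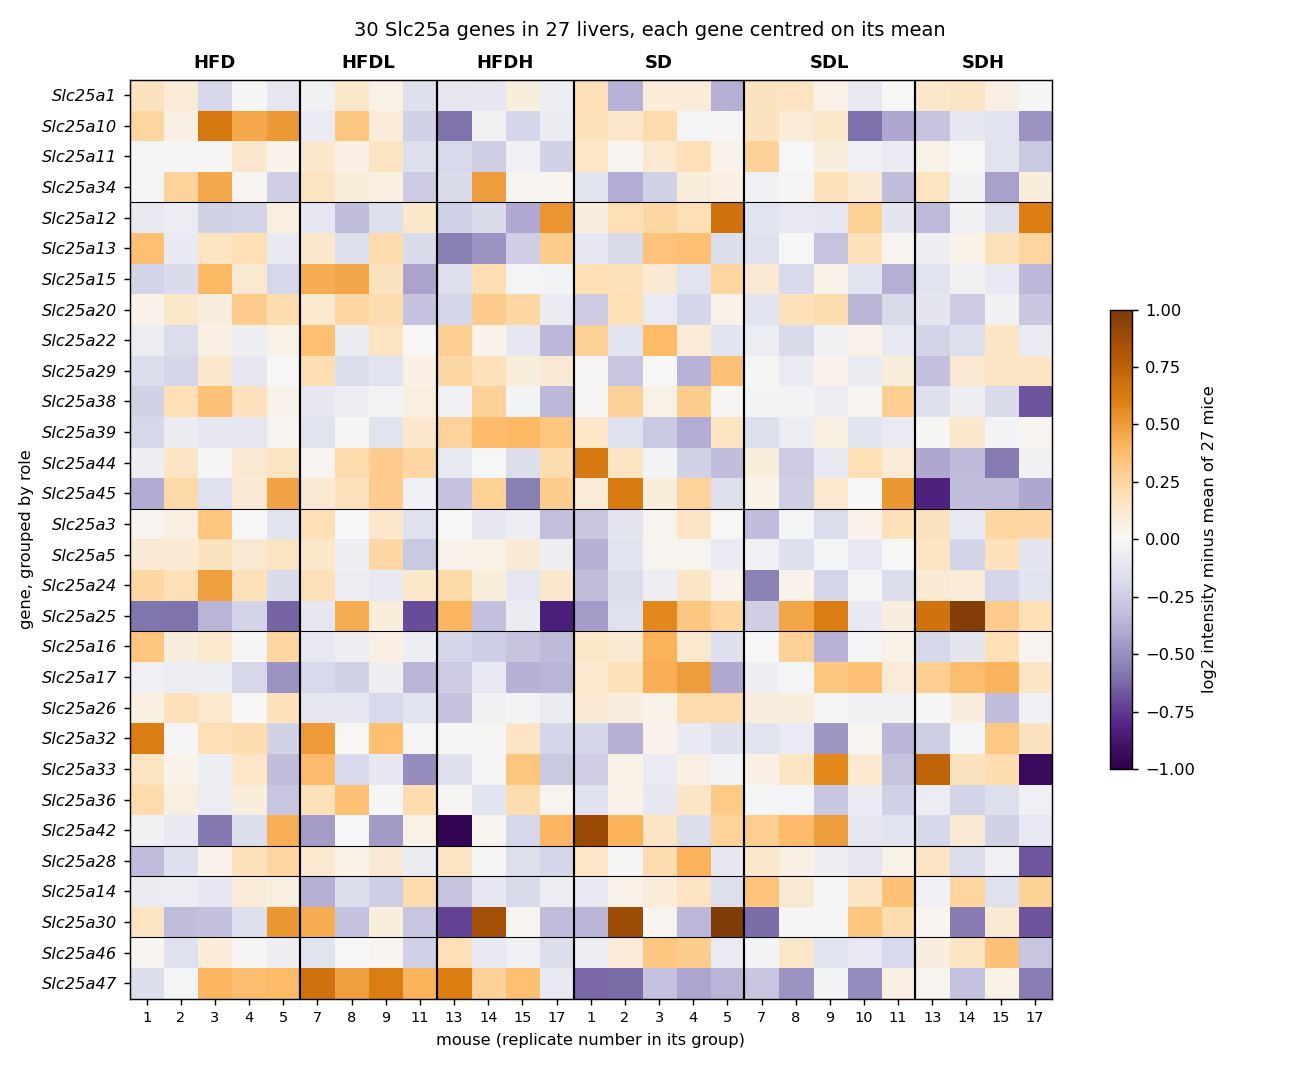
Levels of the 30 tested Slc25a genes (rows, grouped by role) in each of the 27 mice (columns, numbered by replicate within the group), as log2 intensity minus the gene's mean over all mice, with values past either end of the scale drawn in the end colour. Slc25a47 is orange in most HFD, HFDL and HFDH mice and purple in the 5 SD mice, Slc25a39 is orange in the 4 HFDH mice, and SDH replicate 17 is the lowest mouse for Slc25a28, Slc25a33 and Slc25a38.

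By role, the 4 tested carriers of di- and tricarboxylates had a median difference of -0.13 in HFDH-HFD (1 called lower) and 0.14 in HFD-SD (0 called). The 10 tested carriers of amino acids, carnitine and glutathione had medians of -0.04 in HFDH-HFD (1 called higher) and -0.22 in SDH-SD (1 called lower), beside -0.01 and -0.04 over all genes. For the 4 carriers of adenine nucleotides and phosphate, differences in SDH-SD were all positive, from 0.03 to 0.42, and none was called. Of all genes, 42.7% had a positive difference there. The 0.03 is that of the brightest probe of Slc25a24, whose other tested probes differed by -0.22 and -0.09. The 7 carriers of other nucleotides, coenzymes and vitamins had a median of -0.10 in HFDH-HFD (1 called lower) and -0.15 in SDH-SD (0 called).

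Genes that work with the carriers were taken from lists of known function. Of 21 tested enzymes whose substrates or products the carriers move, 1 was called, in HFDH-HFD and SDH-SD (4.38% and 7.07% of all genes called). This was Pcx, the pyruvate carboxylase that makes oxaloacetate in the matrix. It was lower in both high-dose groups, with means of 2.80 in HFDH mice and 3.11 in HFD mice (-0.31, SE 0.09, limma adjusted p = 0.042), and 2.39 in SDH mice and 2.79 in SD mice (-0.39, SE 0.09, adjusted p = 0.0097). In HFDH-HFD the Pcx call was lost without any one of 9 mice (adjusted p up to 0.13), among them all 5 HFD mice. Fitted with only the groups compared, Pcx missed the threshold in HFDH-HFD (adjusted p = 0.075) and in SDH-SD (adjusted p = 0.11). Me1, the cytosolic malic enzyme, differed by -0.81 in HFDH-HFD (SE 0.29, adjusted p = 0.11) and Asl, of the urea cycle, by -0.55 in SDH-SD (adjusted p = 0.080), without passing. None of 10 tested inner-membrane transporters outside the family was called, with Sfxn5 at -0.63 in SDH-SD (adjusted p = 0.050). Nor was any of 13 outer-membrane channels and import proteins, or of the family members Mtch1 and Mtch2.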

How the data were processed

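The authors read the arrays with GenomeStudio (version 2011.1) and deposited an intensity on a linear scale (27 to 37030) and a detection p-value for every probe of each array, with no normalization visible in the values. The authors also deposited a score table, which on the 12 arrays whose labels match equals the Z-normalized log10 intensity (Pearson's r at least 0.99999) and served as an alternative. Here log2 intensities were Z-normalized within each array, and the scores were brought back to the log2 scale with a common factor of 1.89, which is the average of the arrays' standard deviations. Of 32 arrays, 29 from 27 mice had at least 35% of probes detected at p under 0.05. Repeat arrays of SD replicate 1 and HFD replicate 2 were averaged as 1 mouse each. Their number limits the precision.

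Probes were kept if detected in at least 5 mice, and the brightest stood for its gene. Of all probes, 23978 had a symbol. limma (version 3.58.1, R 4.3.3) was fitted with 1 mean per group over all 6 groups, with moderated variances, and p-values were adjusted by Benjamini-Hochberg across 9972 genes in each of 9 comparisons. Adjusted p are from this model, except where an alternative fit is named. Those that compare probes of 1 gene are from the same model fitted to every detected probe. The members and gene lists were chosen with earlier results of these data known. Named by rule were the called carriers, carriers of textbook liver roles, and up to 4 genes of each other list by smallest adjusted p. Some carriers outside that rule were also described with values, with the results known. Among them were Slc25a12, Slc25a17, Slc25a26, Slc25a28, Slc25a29 and Slc25a38. The fit was tested on simulated data. Promoter windows and gene order are from RefSeq, and the files name no genome build. The criteria of the study's methods were run as an alternative, with an unadjusted p under 0.05 from a Z-test, a false discovery rate under 0.3, an absolute Z-ratio over 1.5 and a p under 0.05 across all groups. Other alternatives changed the mice, the normalization, the filter, the probe rule and the model. Slide numbers were not given in the sources used here, so no slide term was fitted.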

Additional observations from a re-analysis of the deposited data

How the results depend on the processing

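With all 30 mice in the fit, or with the deposited scores of all 30 mice, 0 Slc25a genes were called in HFD-SD, HFDH-HFD and SDH-SD, and Slc25a39 in HFDH-HFD turned to -0.16 under both. There the 3 low-signal arrays are stretched to the common spread, and the median of all genes moved to -0.28 in SDH-SD. In HFD-SD the count was also 0 after quantile normalization, after neqc and with only the groups compared, and 2 by the methods' criteria (Slc25a25 and Slc25a47, beside 5.09% of all genes). Median centring without scaling moved the median of all genes to -0.12 in HFD-SD, -0.13 in HFDH-HFD and -0.11 in SDH-SD, and gave 1 carrier in HFDL-HFD (1.28% of all genes called), 7 in HFDH-HFD (10.3%) and 8 in SDH-SD (10.9%). In mice with full signal, the standard deviation of an array's log2 intensities differed by group. It was 1.92 to 1.99 in SD mice and 1.85 to 1.92 in HFD mice. In the high-dose groups it was 1.86 to 1.93 (SDH) and 1.78 to 1.87 (HFDH). Whether this spread caused the shifts was not tested. In SDH-SD, 2 were called after quantile normalization, 3 when every detected probe was tested, and 0 without the detection filter, with only the groups compared, and without SD replicate 2 and SDH replicate 17. The methods' criteria gave 2 in HFDL-HFD and 1 each in HFDH-HFDL and SDH-SDL. By those criteria Slc25a39, Slc25a10 and Slc25a16 also passed in HFDH-HFD and Slc25a45 in SDH-SD. The shares of all genes that passed them in HFDH-HFD and SDH-SD are not given here. Leaving out 1 mouse at a time gave 0 to 2 in HFD-SD, 1 to 4 in HFDH-HFD and 0 to 2 in SDH-SD, and 0 in the other comparisons. In the main fit 0.933%, 4.38% and 7.07% of all genes were called in HFD-SD, HFDH-HFD and SDH-SD. Counts given without a share of all genes show only how the calls depend on the processing. HFD-SD gave 2 without SD replicate 5, and HFDH-HFD gave 1, Slc25a39, without HFDH replicate 13 or 15. The Pcx call in HFDH-HFD was lost after quantile normalization (limma adjusted p = 0.082) and neqc (adjusted p = 0.10), and the Pcx calls in HFDH-HFD and SDH-SD with only the groups compared, with all 30 mice (adjusted p = 0.95 and 0.42) and by the methods' criteria. A slide block was not run. Same-numbered HFD and SD mice correlated in their deviations at -0.20 to 0.21, not all over 0.1, so the numbers were not taken as pairs. A replicate block in HFD-SD gave 0 calls, with Slc25a47 at 0.66 (limma adjusted p = 0.056), and 3 of 5 mice correlated best with their own number. The directions of Slc25a10, Slc25a16, Slc25a45 and Slc25a47 did not turn under any alternative run.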
